A study of Mus musculus with 2 samples.

Results

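The regions described here are runs of neighbouring sites that carried more 5-hydroxymethylcytosine (5hmC) in Tet2+/+ than in Tet2-/- mouse mast cells. They were selected from the authors' list of peaks called in the Tet2+/+ library with the Tet2-/- library as control. A peak of that list was a member if another peak of the list had its summit on the same chromosome at most 10 kb away, and summits at most 10 kb apart were chained into a run. This gave 434 members in 200 runs, out of 2704 such peaks on the 19 autosomes (2724 with the sex chromosomes, on which no run was found) and 38228 deposited peaks of all 4 lists. The members were thus chosen by the very comparison of genotypes, so their excess in Tet2+/+ is a description and was not tested. The other 2270 autosomal peaks of the list, called solitary below, are given beside them for scale.

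Both groups were bone marrow-derived mast cells, primary cells grown from the marrow of C57BL/6 mice of 6 to 12 weeks in medium with interleukin-3. The Tet2+/+ group carried the intact gene and the Tet2-/- group lacked it on both alleles, with no other allele or treatment named. Cells were sorted for Kit, the receptor of stem cell factor, and FcεRIα, a chain of the IgE receptor, at 4 weeks, since the knockout cultures matured less well. Each genotype had 2 animals but 1 library, and whether DNA of the animals was pooled is not given in the sources used here. There is accordingly no replicate spread, no p-value is given, and all intervals cover counting error only.

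TET enzymes oxidise 5-methylcytosine in DNA to 5hmC, the first step by which a methyl group can be removed. TET1, TET2 and TET3 carry out this reaction, so 5hmC can persist in cells that lack 1 of them. In blood cells 5hmC is known to mark enhancers and the bodies of active genes, and TET2 is often mutated in myeloid disease, mastocytosis included. The assay attaches a modified glucose and biotin to 5hmC, pulls the labelled fragments down and sequences them, so it reports where 5hmC lies and how much of it is captured relative to the surroundings, not the share of cytosines modified.

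The values are those of the authors' peak caller. Its fold and p together return the number of Tet2+/+ fragments over each summit and the number expected there from the Tet2-/- library, both at the depth of Tet2+/+. The lowest expectation at any own peak was taken as the genome background of a library. It was 1.46 fragments in Tet2+/+ and 1.72 in Tet2-/-, so Tet2-/- counts were multiplied by 0.848 for comparison. No gene annotation of the mm9 build of these files was used, so regions are named by mm9 position alone and no sequence is shown.

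Most runs were pairs. Of the 200 runs, 171 held 2 members, 24 held 3 and 5 held 4, and none was longer. The median run spanned 5334 bp from the start of its first to the end of its last member, with a range from 616 bp on chromosome 2 to 18220 bp on chromosome 6. All runs together covered 1099 kb. Within them, 234 steps led from one summit to the next, with a median length of 4225.5 bp and an interquartile range of 1812.75 to 6810.75 bp. The fullest 1 kb class of steps was that from 1 to 2 kb, with 37 steps, and 28 steps were at most 1000 bp long. Only 7 steps joined 2 members on the same Tet2+/+ own peak, that is, a peak called in the Tet2+/+ library alone. Most steps thus did not lie within 1 called peak. The share of the list that lay in runs was 16.1% by the rule itself. Under the same distance 38.0% of the Tet2+/+ own peaks and 37.2% of the Tet2-/- own peaks had a neighbour of their own list, but those lists are several times longer. Of the 465 autosomal peaks called higher in Tet2-/-, 14 (3.01%) had a neighbour, in 7 pairs.

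**Figure D1:**
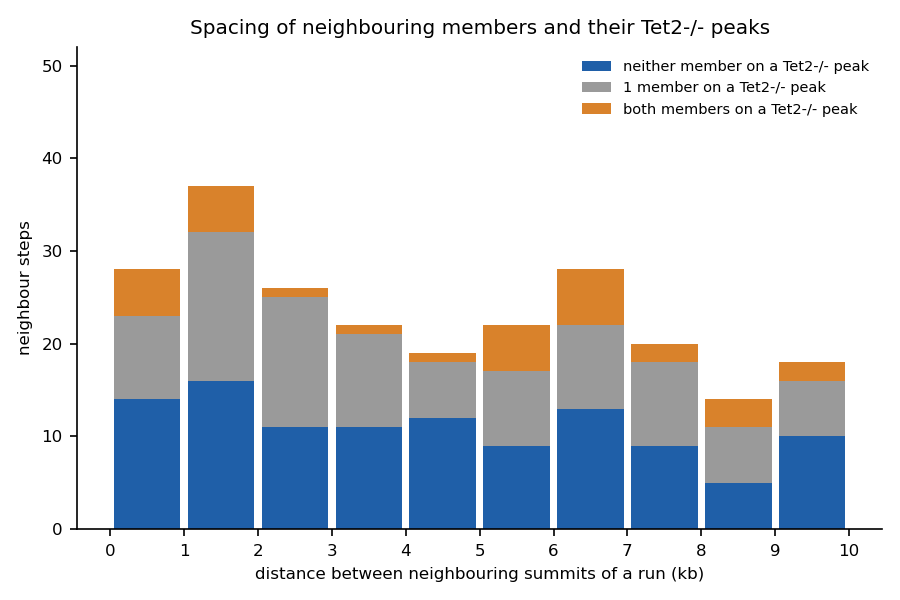
Distances between neighbouring summits within a run (horizontal axis, kb, classes of 1 kb) against the number of steps (vertical axis), for all 234 steps. Colours give how many of the 2 members overlapped a Tet2-/- own peak; steps without any such peak number 110 and occur in every distance class.

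The rule has a sharp edge, and whether the values on its 2 sides differ was not tested. The widest step inside a run was 9998 bp, on chromosome 5 between a region with 12 Tet2+/+ fragments and a deposited fold of 4.82 and a region with 30 fragments and a fold of 4.16. The narrowest step outside was 10012 bp, on chromosome 2 from a region with 21 fragments and a fold of 5.92 to a region with 14 fragments and a fold of 5.56. Both of these chromosome 2 regions belonged to runs of their own, so a slightly wider limit would have joined these runs. The narrowest step between regions outside any run was 10092 bp, on chromosome 13. It led from a region with 23 fragments and a fold of 4.44 to a region with 38 fragments and a fold of 2.53. There were 18 steps of 9 to 10 kb inside and 14 of 10 to 11 kb outside.

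Members carried a modest number of fragments. The Tet2+/+ library had a median of 23 fragments over the summit of a member (range 9 to 76, interquartile range 17 to 32), against 21 (range 9 to 102) at solitary regions. The Tet2-/- library led the peak caller to expect a median of 5.09 fragments at members and 4.24 at solitary regions. The deposited fold, which is the ratio of these quantities with 1 added to each, had a median of 3.95 at members (range 2.06 to 10.7) and of 4.05 at solitary regions. Members were 200 to 712 bp wide, with a median of 259 bp. The median member thus had more fragments than the median solitary region in both libraries, and a slightly lower fold. A −log10 q under 2, the least certain calls, was found for 39 members (8.99%, 95% exact interval 6.47 to 12.1).

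Most members had no called 5hmC peak left in Tet2-/- cells, but a sizeable minority did. Of the 434, 229 (52.8%, 95% exact interval 47.9 to 57.5) overlapped a peak in the Tet2+/+ own list alone. A further 146 (33.6%, 29.2 to 38.3) overlapped an own peak in both libraries by at least 1 bp, and 59 (13.6%, 10.5 to 17.2) overlapped none in either list. No member overlapped a peak of the Tet2-/- own list alone (0 of 434, an upper limit of 0.691%). Over all autosomal regions of the list, 37.1% overlapped a Tet2-/- own peak and 92.4% a Tet2+/+ own peak, and both shares of members, 33.6% and 86.4%, lie below those of the whole list. The solitary shares were 37.7% (35.7 to 39.7) and 93.6% (92.5 to 94.5). Neighbours enter a run together, so the intervals of members are too narrow, and the differences from solitary regions were not tested. The 146 members with a Tet2-/- peak were lowered and not lost, so the regions are called higher in Tet2+/+ throughout.

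At members without a called Tet2-/- peak, the expectation from the Tet2-/- library was mostly above its lowest possible value, the genome background. Among the 288 members without a Tet2-/- own peak, the expectation from the Tet2-/- library stood at the genome background of 1.46 fragments in 9 (3.12%, 95% exact interval 1.44 to 5.85). In 179 (62.2%) it lay above background and at most at 3 times its level, 4.38 fragments, and in 100 (34.7%, 29.2 to 40.5) it lay over that. Among the 1414 solitary regions without a Tet2-/- peak the last share was 19.0% (16.9 to 21.1). Here too the intervals of members are too narrow, and the difference was not tested. The highest expectation at a member without a Tet2-/- peak was 19.5 fragments. The expectation comes from the Tet2-/- fragments at or round the summit, so it does not tell the site itself from its neighbours and does not show 5hmC at the site.

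Members differed in strength with their state. Those with a peak in both libraries had a median of 35 Tet2+/+ fragments (range 17 to 76) and a median fold of 3.40. Those with a peak in Tet2+/+ alone had 21 fragments (10 to 45) and a fold of 4.19, and those in neither list 15 fragments (9 to 27) and a fold of 4.31. The expectation from Tet2-/- had the same order, with medians of 9.50, 4.24 and 2.61 fragments. At solitary regions of these states the medians were 32, 17 and 12 Tet2+/+ fragments, with folds of 3.37, 4.45 and 4.45. Members that kept a Tet2-/- peak thus had more Tet2+/+ fragments and smaller deposited folds, as had solitary regions. Neither is independent of the rule, which needed an excess over the Tet2-/- library, and the fold divides by the expectation from it. The lowest number of fragments in any autosomal own peak of Tet2-/- was 8.

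**Figure D2:**
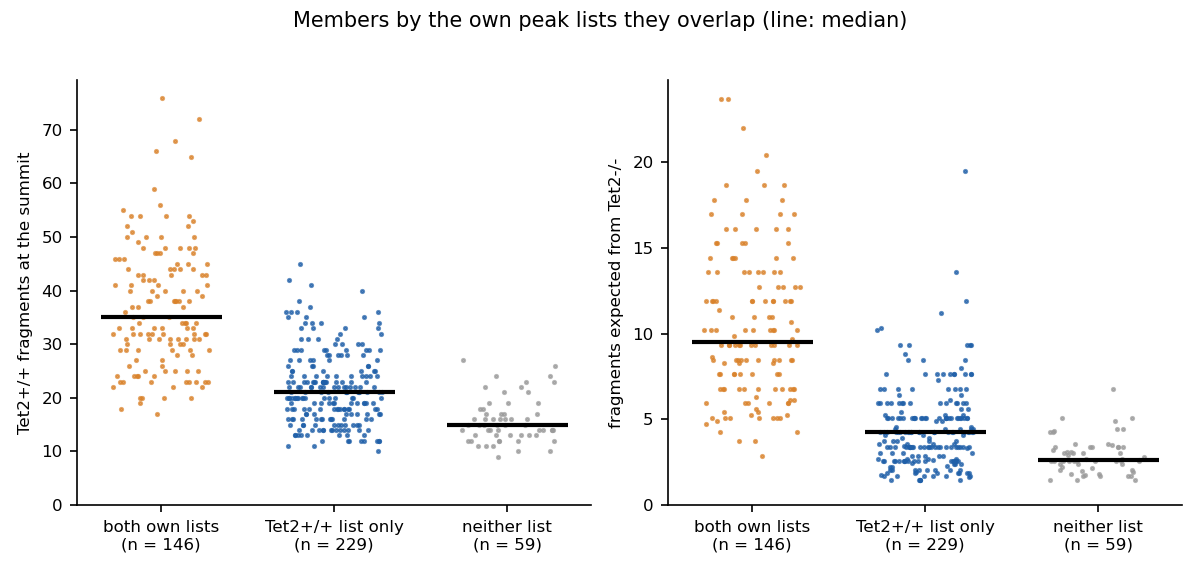
Tet2+/+ fragments at the summit (left panel) and fragments expected there from the Tet2-/- library at Tet2+/+ depth (right panel), both on linear axes, 1 point per member, for members in both own lists (146), in the Tet2+/+ list alone (229) and in neither (59); lines are medians. Fragments run from 17 to 76 in the first class and from 9 to 27 in the last, and the medians of the expectation have the same order.

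Within a run, neighbours could differ in whether a Tet2-/- peak remained. Over all members 33.6% overlapped a Tet2-/- own peak. Whether runs were mixed more or less often than that share alone would give was not tested. In 89 runs (44.5%, 95% exact interval 37.5 to 51.7) no member overlapped a Tet2-/- own peak, in 25 (12.5%, 8.26 to 17.9) every member did, and in 86 (43.0%, 36.0 to 50.2) some did and others did not. Pairs were split into 76 without, 71 with 1 and 24 with 2 such members. Runs of 3 were split into 13 without, 7 with 1 and 4 with 2, and no run of 3 kept a Tet2-/- peak at every member. Each run of 4 kept at least 1, and that on chromosome 5 kept all 4. Counted by steps, 110 of 234 (47.0%) joined 2 members without a Tet2-/- peak, 93 (39.7%) joined a member with one to a member without, and 31 (13.2%) joined 2 members with one. Median step length was 4229 bp, 3721 bp and 5569 bp in these 3 classes, whose ranges overlap. The spans overlapped too, with medians of 5357 bp in runs without a Tet2-/- peak and 5741 bp in runs that kept one at every member.

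In the 86 mixed runs, the members that kept a peak mostly had more Tet2+/+ fragments than the others of their run. The 94 members with a Tet2-/- peak had a median of 34 Tet2+/+ fragments and a median fold of 3.47, and the 97 without had 21 fragments and a fold of 4.23. The mean number of Tet2+/+ fragments was higher at the kept members in 79 of the 86 runs (91.9%), and the mean fold was higher there in 19 (22.1%). Members of runs without any Tet2-/- peak, 191 in number, had a median of 19 fragments and a fold of 4.22. The 52 members of runs that kept every peak had 37.5 fragments and a fold of 3.22. Whether a Tet2-/- peak was called thus moved with Tet2+/+ fragment number both within and between runs. This is not independent of the rule, which needed an excess over the Tet2-/- library. In mixed runs the median expectation from Tet2-/- was 9.33 fragments at members with a Tet2-/- peak and 3.73 at those without. A member with a higher expectation needed more Tet2+/+ fragments to be called. The parts of the rule and of call sensitivity were not tested. Over the 234 steps the higher fold of 2 neighbours was a median of 1.27 times the lower, and for fragments this ratio was 1.42, with a highest of 4.47. Fold has the narrower range over all members, and whether neighbours were more alike than other members was not tested.

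At members with a peak in both libraries, coverage could be compared directly. For 118 of the 146, the Tet2+/+ and Tet2-/- own peaks had summits within 100 bp of each other, and the other 28 had summits farther apart. The paired Tet2+/+ peaks had a median of 37.5 fragments (range 17 to 76). Their Tet2-/- partners had a median of 22 fragments (9 to 60), which is 18.7 at the depth of Tet2+/+. Coverage in Tet2+/+ was 1.92 times that in Tet2-/- at the median member, with an interquartile range of 1.63 to 2.21 and a full range of 1.13 to 3.65. All 118 ratios were above 1. At the same members the deposited fold had a median of 3.40, so the fold exceeds the difference in summit coverage. The expectation from Tet2-/-, by which the fold divides, had a median of 9.50 fragments over all 146. This is below the 18.7 scaled fragments of the 118 Tet2-/- peaks, so the expectation is not the Tet2-/- coverage at the summit. Why it is lower was not tested. The coverage ratio was at least 2 at 49 members (41.5%, 95% exact interval 32.5 to 51.0), at least 3 at 5 (4.24%, 1.39 to 9.61) and under 1.5 at 14 (11.9%, 6.64 to 19.1). Over all 8306 autosomal pairs of own peaks, called or not, the median ratio was 1.15, and at the 685 paired solitary regions it was 1.87 (interquartile range 1.62 to 2.16). The members' ratios are not independent of the rule, which needed an excess in Tet2+/+.

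**Figure D3:**
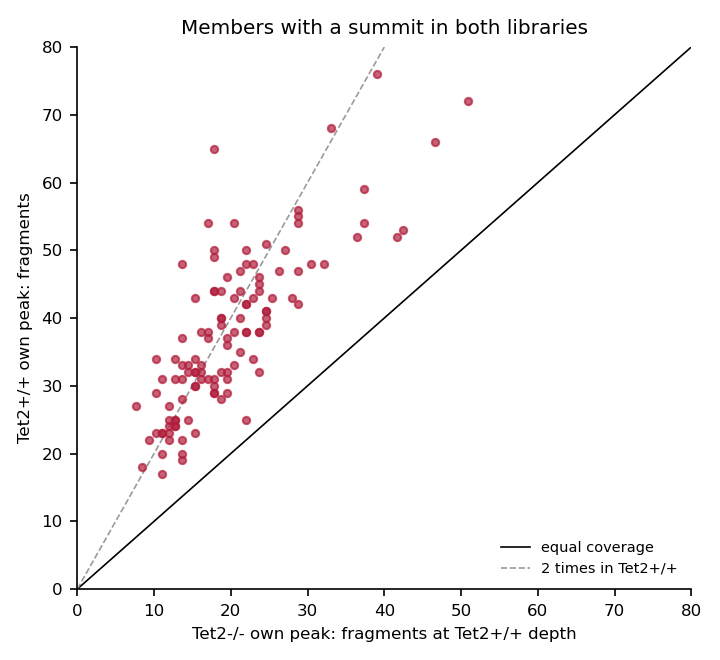
Fragments at the summit of the Tet2-/- own peak, scaled to the depth of Tet2+/+ (horizontal axis), and of the Tet2+/+ own peak (vertical axis) for the 118 members with summits within 100 bp in both libraries, 1 point each. Every point lies above the line of equal coverage, with ratios from 1.13 to 3.65.

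The 5 runs of 4 members and the 5 strongest runs of 3 show the variety. The run of highest significance among those of 4 lay on chromosome 5 at 65066359 to 65083881 and spanned 17.5 kb. From its first to its last member the Tet2+/+ library had 38, 65, 50 and 48 fragments. The Tet2-/- own peaks under them had 20, 21, 32 and 36 fragments, or 17.0, 17.8, 27.1 and 30.5 after scaling. All 4 sites thus kept a peak, lowered by ratios of 2.24, 3.65, 1.84 and 1.57. The second member, at 65072334 to 65072831, had the highest paired ratio of all members, where counting error puts the 65 Tet2+/+ fragments between 50.2 and 82.8 (95% Poisson interval). The span held 1 more Tet2-/- own peak, at no member.

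On chromosome 17 at 7348154 to 7366309, 4 members had 28, 38, 48 and 19 Tet2+/+ fragments. The first 3 kept Tet2-/- peaks of 13.6, 22.0 and 13.6 scaled fragments, and the last, the weakest, kept none. The member with 48 fragments, at 7364044 to 7364393, was lowered 3.54-fold and that with 38 fragments 1.72-fold. A Tet2+/+ own peak of the span overlapped no member.

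Chromosome 15 held 2 runs of 4. That at 58876269 to 58886705 alternated: members with 38 and 48 Tet2+/+ fragments kept Tet2-/- peaks of 22.0 scaled fragments each, and members with 23 and 28 fragments had none. The run at 27478486 to 27483359 was the most compact of this size, at 4.87 kb, with a narrowest step of 640 bp. Its first 2 members (22 and 24 fragments) were in neither own list. Its last 2 (47 and 46 fragments) overlapped the same Tet2+/+ own peak and 2 separate Tet2-/- own peaks of 29 and 25 fragments, so here 1 peak was counted as 2 members. On chromosome 16 at 92777410 to 92793358, members of 21, 34, 22 and 24 fragments included 1 with a Tet2-/- peak, of 15.3 scaled fragments under the strongest member, and 2 in neither own list.

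The runs of 3 included the steepest changes. On chromosome 19 at 21540262 to 21545401, the middle member had 31 Tet2+/+ fragments over an expectation of 2.37 and no Tet2-/- peak, with a deposited fold of 9.48. Its neighbours, 1.02 kb and 3.87 kb away, had 24 and 25 fragments, folds of 3.60 and 4.52, and Tet2-/- peaks of 11.9 and 12.7 scaled fragments. On chromosome 13 at 32528588 to 32536736, the middle member had 32 fragments over an expectation of 2.61. The member 1.67 kb further on, with 40 fragments, overlapped a Tet2-/- peak of 23.7 scaled fragments. The summit of that Tet2-/- peak lay outside the run, at 8.238 kb from the run's first summit, against 7.744 kb for the member. In these 2 runs, folds within the run differed 2.63 and 2.76 times, the latter the widest spread of any run.

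Other runs of 3 had no called peak in Tet2-/- cells, with expectations mostly above the background of 1.46. The run on chromosome 2 at 104321349 to 104329858 had members of 14, 31 and 27 fragments over expectations of 1.70, 5.94 and 3.05. The run on chromosome 11 at 67865327 to 67868706 had members of 15, 29 and 33 fragments over expectations of 3.22, 4.41 and 6.78. Neither had a Tet2-/- own summit in its span or within 10 kb of it. On chromosome 6 at 42371497 to 42374955, members of 45, 29 and 17 fragments included 1 with a Tet2-/- peak, under the strongest.

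**Figure D4:**
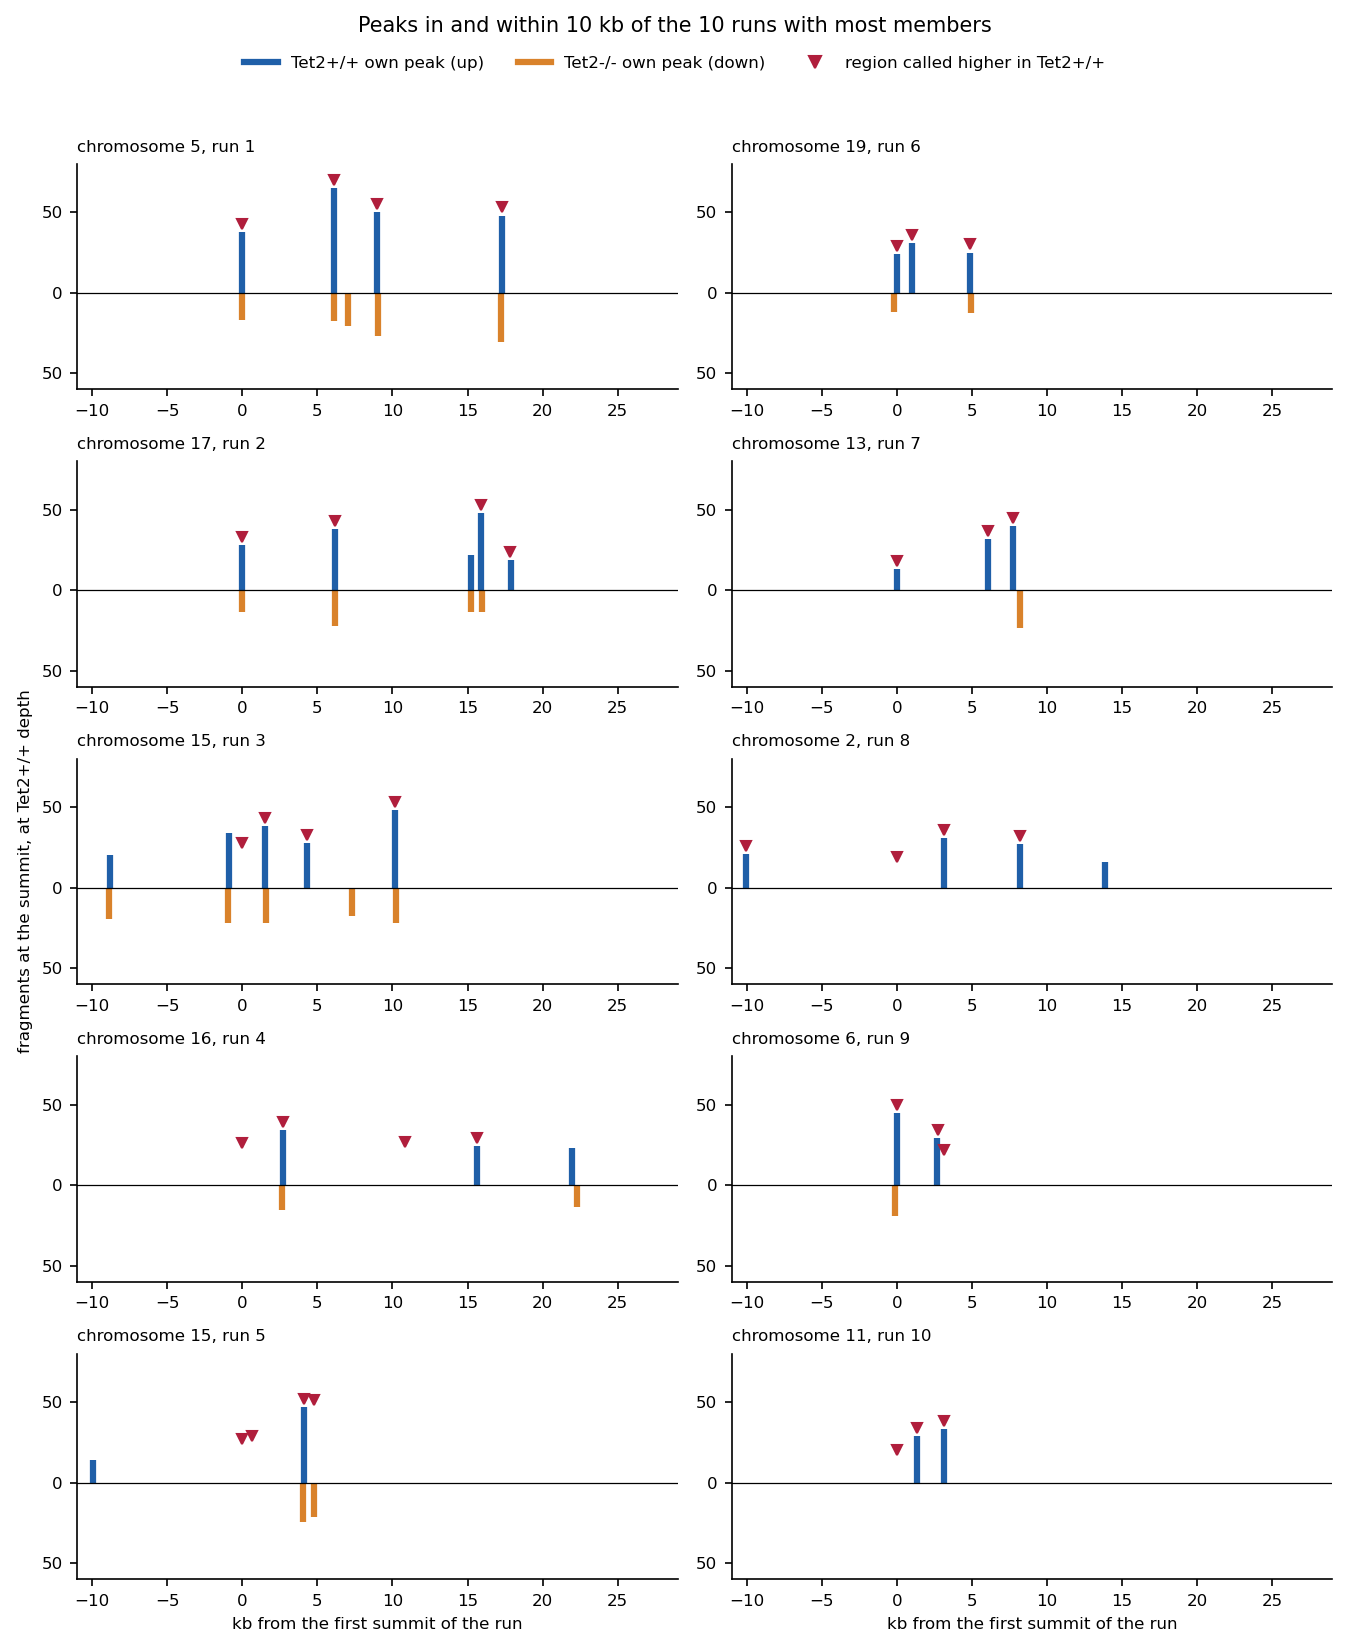
Peaks in and within 10 kb of the 10 runs with most members, 1 panel per run, against the distance from the first summit of the run (kb). Bars up are Tet2+/+ own peaks and bars down Tet2-/- own peaks, by fragments at the summit at the depth of Tet2+/+; triangles mark regions called higher in Tet2+/+, at their Tet2+/+ fragments plus a fixed offset. All 4 members of run 1 stand over a Tet2-/- bar and runs 8 and 10 have no Tet2-/- bar; the leftmost triangle of run 8 is the region 10012 bp away, outside the rule.

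Of the 10 members with the highest −log10 q, 6 had no Tet2-/- peak, as had 288 of all 434. The median −log10 q was 5.30 for members in both own lists, 4.68 for those in the Tet2+/+ list alone and 3.31 for those in neither. The 6 were led by chromosome 13 at 56405585 to 56405940, where 37 Tet2+/+ fragments (26.1 to 51.0) stood over an expectation of 2.54. Its run-mate, with a summit 485 bp away, had 40 fragments over an expectation of 8.48, also without a Tet2-/- peak. The next member lay on chromosome 15 at 94224720 to 94225338 and had 36 fragments where 2.54 were expected. It was followed by 41 fragments where 4.24 were expected, on chromosome 12 at 25712397 to 25712909. Lower in the order stood the middle members on chromosomes 19 and 13 described above, and 30 fragments where 2.88 were expected on chromosome 11 at 58870511 to 58870793. The 4 leading members that kept a peak were the chromosome 5 and chromosome 17 members with ratios of 3.65 and 3.54, chromosome 17 at 88935675 to 88935966 (68 fragments over 33.1 scaled, ratio 2.06) and chromosome 1 at 154446941 to 154447268 (76 over 39.0, ratio 1.95). The 5 highest deposited folds ran from 9.14 to 10.7, all at members without a Tet2-/- peak. The only one not yet named was chromosome 19 at 58069145 to 58069450, where 23 Tet2+/+ fragments stood over background.

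Few Tet2+/+ peaks inside the runs were in no call. The run spans held 388 Tet2+/+ own summits, and 367 of these peaks (94.6%, 95% exact interval 91.8 to 96.6) overlapped a member. Over all autosomal Tet2+/+ own peaks 13.9% overlapped a region called higher in Tet2+/+. The shares cannot be compared, since the ends of each run are members by construction. The 21 Tet2+/+ peaks in no call lay in 16 runs, among them chromosome 6 at 88040648 to 88058867, where 3 of 6 Tet2+/+ own peaks were not members. The spans held 173 Tet2-/- own summits, of which 35 belonged to no Tet2-/- peak that touches a member. In 77 runs (38.5%, 31.7 to 45.6) the span had no Tet2-/- own summit, and in 35 (17.5%, 12.5 to 23.5) there was none within 10 kb on either side. With these flanks the runs held 489 Tet2+/+ and 301 Tet2-/- own summits.

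Peaks called higher in Tet2-/- were few over the whole genome, and few near runs. No member overlapped a region called higher in Tet2-/-. Within 10 kb of a run lay 5 of the 465 autosomal regions higher in Tet2-/-, at 4 runs, and 1 of these lay inside the run, on chromosome 13 between 45711803 and 45714233. Over all autosomal Tet2-/- own peaks 2.80% were called higher in Tet2-/-, and the runs with their flanks held 301 Tet2-/- own summits, so the count of 5 is not a result about the runs. The run with 2 of these regions in its flanks was on chromosome 1 at 40499261 to 40508771, where no member kept a Tet2-/- peak but 4 Tet2-/- own summits lay in or near the run.

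Members stood in denser 5hmC surroundings than solitary regions. Within 10 kb of a member's summit there was a mean of 2.28 Tet2+/+ and 1.33 Tet2-/- own summits, against 1.40 and 0.888 for solitary regions. The first count includes the site's own peak, and the rule itself asks for a neighbour. The share called was also computed by own-peak density over all 17882 autosomal Tet2+/+ own peaks. These include the peaks under members, so the shares are not independent of the rule. Of Tet2+/+ own peaks with no other own peak within 10 kb 12.8% (95% exact interval 12.2 to 13.4) overlapped a region higher in Tet2+/+, of those in own-peak runs of 2 it was 15.4% (14.3 to 16.5), of 3 it was 15.7% (13.9 to 17.6) and of 4 or more 17.6% (15.3 to 20.1). The median fragments of these 4 classes were 16, 17, 19 and 20. The part of fragment number in these shares was not tested. Of the 375 members in the Tet2+/+ own list, 333 belonged to an own-peak run and 42 had an own peak that stood alone.

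In the Tet2+/+ own list, the peaks under members were strong in fragments and less so in fold. The 368 own peaks that members overlapped had a median of 24.5 fragments, against 22 for the 2124 under solitary regions and 17 for all 17882 autosomal own peaks. Their median fold over the library's own surroundings was 5.80, against 6.61 under solitary regions and 5.48 in the whole list. The fragments expected from those surroundings had a median of 3.48 under members, 2.42 under solitary regions and 2.16 in the whole list. By −log10 q they stood at a median percentile of 75.1 of the own list, with an interquartile range from 44.0 to 89.9, and the solitary ones at 75.2. Their median width was 388.5 bp.

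The 59 members in neither own list were spread over 56 runs, and every run had at least 1 member in the Tet2+/+ own list. Their median distance to the nearest Tet2+/+ own summit was 2690 bp (range 413 to 9533 bp), and 9 lay within 1000 bp of one. At the 146 solitary regions in neither list it was 7254 bp (351 to 116115 bp). The rule asks for a neighbour within 10 kb of a member and for none at solitary regions, so these distances cannot be compared. These members were narrow, with a median width of 226 bp, and had a median −log10 q of 3.31. They include 2 of 4 members of the chromosome 16 run and of the compact chromosome 15 run. The own list is called against the library's own surroundings, and the expectation from them, given above, is known only at called own peaks. It was not available for these 59 members, and its part in their share was not tested.

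Runs were found on every autosome, most often on chromosome 5. There 49 of 174 regions higher in Tet2+/+ (28.2%, 95% exact interval 21.6 to 35.5) lay in 21 runs, against 16.1% on all autosomes and 15.2% (13.8 to 16.7) on the others. Neighbours enter a run together, so these intervals are too narrow. The lowest share was 7.41% (2.77 to 15.4) on chromosome 14, where 6 of 81 regions made 3 runs. Chromosome 5 did not stand out in the number of regions relative to own peaks: it had 16.5 per 100 Tet2+/+ own peaks, in a range from 11.6 on chromosome 14 to 19.0 on chromosome 17. Tet2-/- peaks were kept by 23 of the 49 members on chromosome 5 (46.9%) and by 14 of 26 on chromosome 17 (53.8%), the highest share, and by 3 of 18 on chromosome 4 (16.7%), the lowest.

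**Figure D5:**
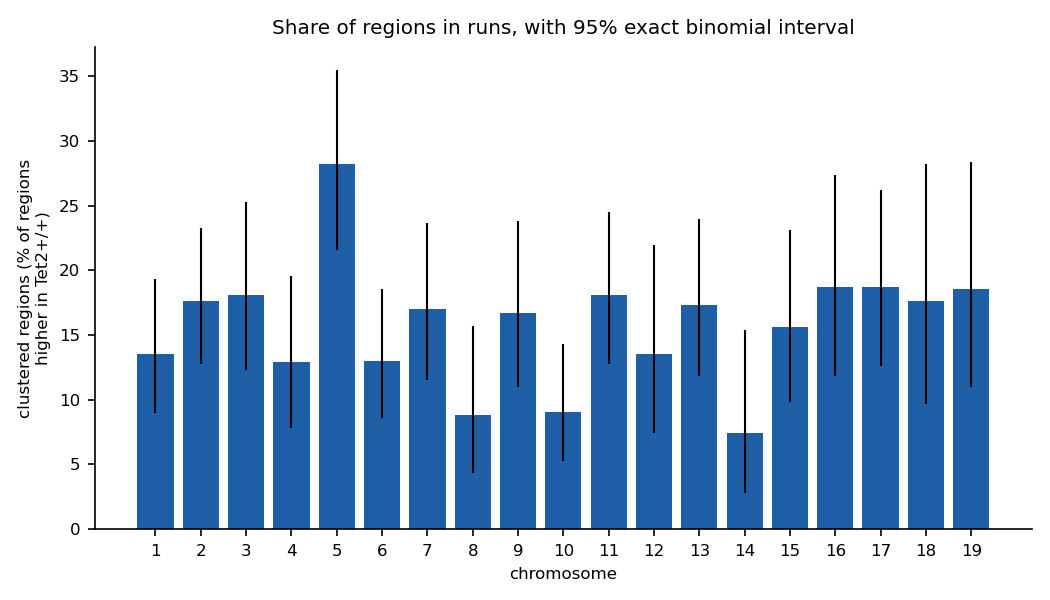
Share of regions called higher in Tet2+/+ that lay in runs (vertical axis, %), by autosome (horizontal axis), as bars; lines are 95% exact binomial intervals. Chromosome 5 has the highest share, 28.2%, and chromosome 14 the lowest, 7.41%.

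Chromosome 5 also held the fullest megabase. The megabases from 75 to 76 Mb and from 76 to 77 Mb held 7 and 5 members. Of the 7 places where a run began at most 100 kb after the end of another, 2 lie here, with gaps of 10058 and 10691 bp. The stretch was singled out after its values were seen. With summits up to 20 kb apart joined it formed the run of most regions, 9 over 58.2 kb at 75985984 to 76044217, of which 8 were members. Their Tet2+/+ fragments were even, from 24 to 38, and their folds ran from 2.27 to 4.11. In this run 1 of the 9 regions overlapped a Tet2-/- own peak, and the span held 10 Tet2+/+ and 3 Tet2-/- own summits. The expectation from the Tet2-/- library at the 8 regions without a Tet2-/- peak ran from 5.09 to 13.6 fragments, above the background of 1.46. The next such runs by number of regions were on chromosome 2 at 104292696 to 104342012, with 7 regions, no Tet2-/- peak under any of them and expectations from 1.70 to 5.94 fragments, and on chromosome 17 at 7348154 to 7383844, with 6 regions of which 5 kept a Tet2-/- peak. These 3 runs thus differed in called Tet2-/- peaks, with 1 of 9, 0 of 7 and 5 of 6 regions on one.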

How the data were processed

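5hmC-enriched DNA of sorted mast cells was sequenced in 1 library per genotype, from 4 µg of DNA sheared to 200 to 400 bp, per the labels' protocols. Per the submitters' processing notes, the tools were Bowtie2 and MACS2 and the build mm9. The sources used here do not give their versions or settings. Of the 4 peak lists, made per library, 2 are own peaks and 2 have the other library as control. For every peak the authors deposited a score and, at the summit, a fold (ratio), with −log10 of p and of q. These values were used to describe and rank peaks within a list.

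Summits are the start plus the deposited offset, and printed starts are 1-based. Fragments at the summit and their expectation were solved from fold and −log10 p, taking the fold as fragments plus 1 over expectation plus 1 and p as the Poisson tail, which met the deposited p within 0.001 for 100% of peaks. The depth of each library is known only as its background, 1.46 and 1.72 fragments (the total number of reads is unknown), so Tet2-/- fragments were scaled by 0.848. The recovery, the grouping into runs and the overlaps were checked on simulated lists.

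Overlap means at least 1 bp. Intervals are 95% exact Clopper-Pearson for shares and exact Poisson for fragments, and for a count of 0 the upper limit is 3 counts over the total. They cover counting error only, because neither neighbouring regions nor fragments copied by PCR are independent. With 1 library per genotype there was no test across samples. The named runs are the 10 with the most members, ties by the highest −log10 q, and the named members the 10 of highest −log10 q and the 5 of highest fold. The members, lists and rules were chosen with earlier results of these data known. Fixed lists of genes and motifs were not analysed here, since no mm9 annotation or genome was used. Python 3.11.15, numpy 2.4.6, pandas 2.3.3, scipy 1.17.1 and matplotlib 3.10.9 were used.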

Additional observations from a re-analysis of the deposited data

How the results depend on the processing

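Over 9 results and 13 settings, 70 values were recomputed: 48 stayed close to the reported value (counts within 1.5 times, shares and medians within its 95% exact binomial interval) and 22 moved farther. Joining summits up to 5 kb apart left 253 members in 121 runs, 80.2% of members in the Tet2+/+ own list, and 98% of the Tet2+/+ own peaks in runs called. Joining up to 20 kb apart lowered the last share to 88.1%. Regions with −log10 q of at least 5 gave 104 members in 50 runs, 92.3% in the Tet2+/+ own list, a median fold of 4.62, a median of 29 fragments and a median paired coverage ratio of 2.23. Runs of 3 or more gave 92 members in 29 runs, 82.6% in the Tet2+/+ own list, a median of 25.5 fragments, and 89.2% of own peaks in runs called. With reciprocal overlap of at least 50%, 25.8% of members had a Tet2-/- and 73.0% a Tet2+/+ own peak, and 55% of runs had no Tet2-/- peak. With own peaks within 1000 bp counted, the member shares were 42.9% and 90.3%. Among the 375 members that overlapped a Tet2+/+ own peak, with or without a Tet2-/- one, a setting chosen after seeing the data, 38.9% had a Tet2-/- peak. Stricter limits leave fewer regions by construction, and other causes were not tested. Leaving out chromosome 5, also chosen after seeing the data, moved none of the 3 values recomputed beyond its limits. Alternatives for gene features and gene lists were not run. No paired analysis was possible because a genotype is represented here by a single library. Counting error bounds what any region can show, since the median member has 23 Tet2+/+ fragments.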
